A study of Mus musculus with 4 samples.

Results

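Genes that present antigen were measured in mouse hearts under pressure overload. The set holds the class II chains H2-Aa, H2-Ab1 and H2-Eb1, their partners Cd74 and H2-DMa, the class I heavy chains H2-K1 and H2-D1 with their light chain B2m, and the coactivator Ciita. Members were found by transcript name: a probe was taken when it carried the name of a RefSeq or Ensembl transcript of one of these genes. This gave 11 probes on 21 spots for the 9 genes, of 55681 probes and 21762 genes with a named probe on the array. H2-Ab1 and H2-K1 had 2 probes each, and all 11 probes were well above background on all 4 arrays.

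Total RNA came from whole hearts of male mice after sham surgery or transverse aortic constriction (TAC), a banding of the aorta that makes the left ventricle pump against a raised pressure. The study used C57BL/6J mice, and the labels of the sham and TAC hearts name no transgene and no deleted allele. Hearts were taken at 2 weeks, labelled as 10 weeks of age, and at 8 weeks, labelled as 16 weeks of age. The methods state an age at surgery that is older than the labelled age of the 2-week hearts, so the labelled ages carry this conflict. There were 4 groups with 1 array each, and every array held 1 pool of RNA from several mice. The spread between mice was therefore not measured, TAC and sham could not be tested at either time, no p-value was computed for both times together, and each fold change below is the ratio of 2 pools. In whole-heart RNA, more cells of one type and more RNA per cell cannot be told apart.

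Class II molecules display peptides taken up by a cell to helper T cells, and in a healthy heart they are mainly found on resident macrophages and dendritic cells. Their chains are assembled on the invariant chain encoded by Cd74, and H2-DM exchanges the remaining fragment of that chain for an antigenic peptide. Class I molecules, a heavy chain paired with beta-2 microglobulin, display peptides from inside the cell on nearly all nucleated cells. Interferon gamma induces both classes. Ciita is the coactivator that class II promoters depend on, and Nlrc5 has that role for class I.

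The promoters of these genes are known for short shared elements, and the sequences are shown so that the elements can be seen in place in both classes. Of the 9 genes, H2-Ab1 and Ciita had no entry in the RefSeq promoter table of build GRCm38.p6, and the selection left out Cd74. The other 6 were searched: H2-Aa, H2-Eb1, H2-DMa, H2-K1, H2-D1 and B2m. For 5 of them the 180 bases before the start site and the first 5 bases of the transcript read as follows, 5′ to 3′ on the gene's own strand, with capitals at the matches described next.
H2-Aa (chr17:34287819-34288003, minus strand): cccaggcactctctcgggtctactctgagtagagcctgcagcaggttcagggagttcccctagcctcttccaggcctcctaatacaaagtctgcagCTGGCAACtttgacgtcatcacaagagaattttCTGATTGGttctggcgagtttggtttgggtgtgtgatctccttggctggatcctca
H2-Eb1 (chr17:34305687-34305871, plus strand): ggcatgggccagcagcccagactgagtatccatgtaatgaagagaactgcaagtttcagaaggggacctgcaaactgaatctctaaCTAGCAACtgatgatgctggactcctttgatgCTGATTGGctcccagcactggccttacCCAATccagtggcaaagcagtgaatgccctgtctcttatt
H2-K1 (chr17:34000329-34000513, minus strand): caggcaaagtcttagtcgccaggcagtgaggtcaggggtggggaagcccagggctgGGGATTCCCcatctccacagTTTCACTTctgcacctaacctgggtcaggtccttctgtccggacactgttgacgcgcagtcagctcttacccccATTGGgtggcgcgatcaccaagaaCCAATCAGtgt
H2-D1 (chr17:35262914-35263098, plus strand): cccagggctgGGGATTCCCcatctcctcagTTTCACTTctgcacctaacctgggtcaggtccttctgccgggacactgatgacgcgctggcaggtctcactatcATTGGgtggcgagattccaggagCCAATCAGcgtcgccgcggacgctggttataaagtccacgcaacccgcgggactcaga
B2m (chr2:122147507-122147691, plus strand): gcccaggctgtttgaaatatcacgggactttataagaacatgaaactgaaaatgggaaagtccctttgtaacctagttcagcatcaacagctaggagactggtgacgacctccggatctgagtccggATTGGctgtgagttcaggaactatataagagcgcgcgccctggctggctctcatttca

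The motifs were searched on both strands of windows from 250 bases before to 50 bases after each start site. An X box core was written as CTNGNAAC, a Y box as CTGATTGG, its CCAAT core as ATTGG, the kappaB element of class I enhancer A as GGGATTCCC and the core of an interferon response element as TTTCACTT. Of 32851 promoter windows of this length, 13.2% held the X box core, 4.10% the Y box, 37.4% the CCAAT core, 0.353% the kappaB element and 1.60% the interferon element core. Every Y box match contains a CCAAT core match.

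H2-Aa held an X box core starting 84 bases and a Y box starting 51 bases before the start site. H2-Eb1 held the same pair at 94 and 62 bases. The X box is read by the RFX complex and the Y box by NF-Y, and Ciita joins the proteins bound there. These promoters carried the pair in the same order and on the same strand. Neither window of H2-DMa, the other class II gene searched, held the letters of an X box core or a Y box.

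H2-K1 and H2-D1 held the kappaB element, at 124 and 170 bases before the start site, each followed by the interferon element core, at 104 and 150 bases. For H2-K1 the positions are those of the second of 2 start sites in the table. The kappaB letters were rare, with 116 windows of 112 genes holding them. Both heavy chain promoters also had a Y box on the opposite strand, and H2-D1 an X box core on that strand, 212 bases before the start and outside the printed stretch. Of the strings searched, B2m held only the CCAAT core, 53 bases before its start site. H2-DMa, not printed, held that core in the window of its second start site. A match is a string of letters, and binding was not measured here. Other spellings of these elements were not searched, so a promoter without a match may still hold such an element.

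At 8 weeks, the signal of all 9 genes was higher in the TAC pool than in the sham pool, from 1.25-fold for H2-D1 to 1.59-fold for Ciita, with a median of 1.36-fold. At 2 weeks the median of the same genes was 1.07-fold, 6 genes were above sham, and H2-K1, H2-D1 and Ciita were below it. The 2-week ratios ran from 1.31-fold lower for Ciita to 1.13-fold higher for Cd74. Levels are given as multiples of the 75th percentile of the array's own probes, and differences as log2 ratios of these multiples. None of the 9 genes passed 2-fold at either time. Over all probes, 1.89% were called higher and 1% lower by that rule at 2 weeks, and 1.89% higher and 1.77% lower at 8 weeks. At a threshold of 1.5-fold, 0 of 9 genes were called at 2 weeks, where 4.57% of all probes were higher and 2.62% lower. At 8 weeks 1 of 9, Ciita, was called higher, beside 4.12% of all probes higher and 4.52% lower.

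**Figure D1:**
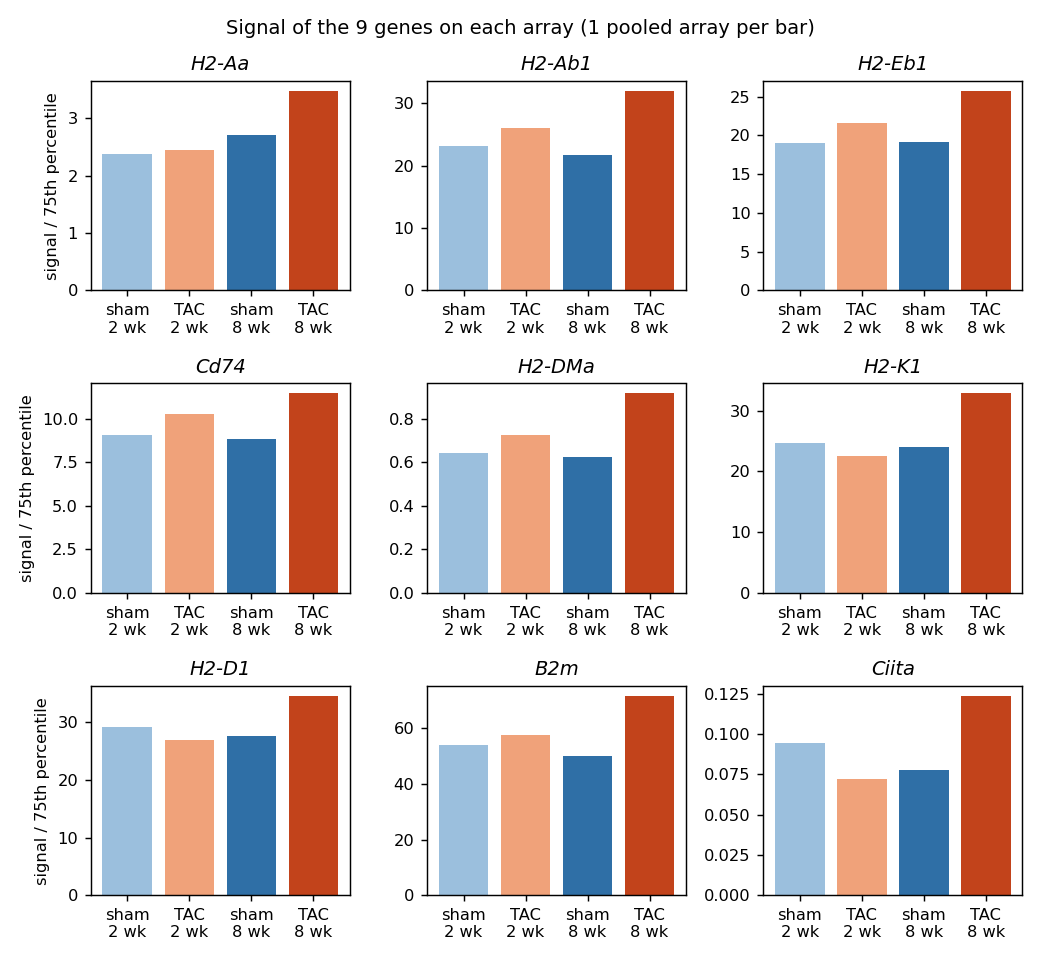
Signal of each of the 9 genes, as a multiple of the 75th percentile of the array's probes, on the 4 arrays (sham and TAC at 2 and at 8 weeks after surgery). Each bar is 1 array of pooled RNA, so there is no error bar, and each panel has its own vertical axis from 0. The bar of the TAC pool at 8 weeks is the highest in all 9 panels.

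The array of the TAC pool at 8 weeks had the highest of the 4 levels for 11 of 11 probes. Over the 29262 probes well above background on every array, 26.6% had their highest level there. That array was also the brightest, with a 75th percentile of 248 intensity units against 206 on both 2-week arrays and 221 in sham at 8 weeks, and every level was divided by this value. Under 8 alternatives of the processing, other scalings among them, the 8-week log2 ratios of the 9 genes stayed above 0, between 0.20 and 0.84. Most of these alternatives shift the ratios of all 9 genes by nearly the same amount, so they are not independent checks. On the 4 arrays 54.7% to 58.5% of probes were well above background. The known signs of pressure overload were present, with Nppb, the gene of B-type natriuretic peptide, 2.05-fold higher in TAC at 2 weeks and 3.84-fold at 8 weeks, Nppa, the gene of atrial natriuretic peptide, 3.58-fold and 6.28-fold, and Myh7, the fetal myosin heavy chain, 6.55-fold and 12.9-fold.

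The technical spread could be read from 399 probes that were printed on 10 spots of each array. Between 2 such spots, the log2 ratio had an SD of 0.11 for probes above 0.25 of the 75th percentile and 0.32 for dimmer ones. This SD comes from spots within an array. It covers the spot, and neither technical differences between arrays nor differences between animals. Of the 9 genes, Ciita was dim by this limit and the other 8 were bright.

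Among the class II chains, H2-Aa encodes the alpha chain of I-A. Its level was 2.38 in the sham and 2.45 in the TAC pool at 2 weeks, and 2.71 and 3.47 at 8 weeks. The 3 lower values included both 2-week pools and the 8-week sham pool, and the TAC pool at 8 weeks stood apart above them. The log2 ratio of TAC over sham was 0.04 at 2 weeks, within the spread of a spot and at -0.00 when arrays were scaled to their median, and 0.36 at 8 weeks.

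H2-Ab1 encodes the beta chain of I-A. Its brighter probe gave 23.2 and 26.1 at 2 weeks and 21.7 and 31.97 at 8 weeks, sham first. Its other probe gave 18.3 and 22.9, and then 18.4 and 27.003. Both probes put the TAC pools above the sham pools at both times. In log2, TAC over sham was 0.17 and 0.32 at 2 weeks and 0.56 and 0.55 at 8 weeks, so the probes differed by more than the SD of a spot ratio at 2 weeks and lay close together at 8 weeks.

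H2-Eb1 encodes the beta chain of I-E. It read 19.1 in sham and 21.6 in TAC at 2 weeks, and 19.2 and 25.7 at 8 weeks. The sham pools were nearly equal, and both TAC pools lay above them, the later one further. The log2 ratio was 0.18 at 2 weeks and 0.42 at 8 weeks. No probe carried a transcript name of H2-Ea, the alpha chain partner of H2-Eb1, which C57BL/6 mice do not express.

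Cd74, the invariant chain that escorts class II dimers to the endosome, read 9.06 and 10.3 at 2 weeks and 8.84 and 11.5 at 8 weeks. Its log2 ratio was 0.18 at 2 weeks and 0.37 at 8 weeks. H2-DMa, a chain of the peptide exchange factor H2-DM, read 0.641 and 0.724 at 2 weeks and 0.622 and 0.915 at 8 weeks, with log2 ratios of 0.18 and 0.56. For both genes the sham pools were the 2 lowest arrays and the TAC pool at 8 weeks the highest.

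The 5 class II genes together had a median log2 ratio of 0.18 at 2 weeks, with a range of 0.04 to 0.18, and of 0.42 at 8 weeks, with a range of 0.36 to 0.56. Over the 29895 probes well above background on both arrays at 2 weeks, the median log2 ratio was -0.02 and 46.6% lay above 0. Over 30411 probes at 8 weeks, the median was -0.04 and 43.6% lay above 0. At 2 weeks, H2-Ab1, H2-Eb1, Cd74 and H2-DMa sat just above the upper quartile of all probes, which was at 0.14.

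**Figure D2:**
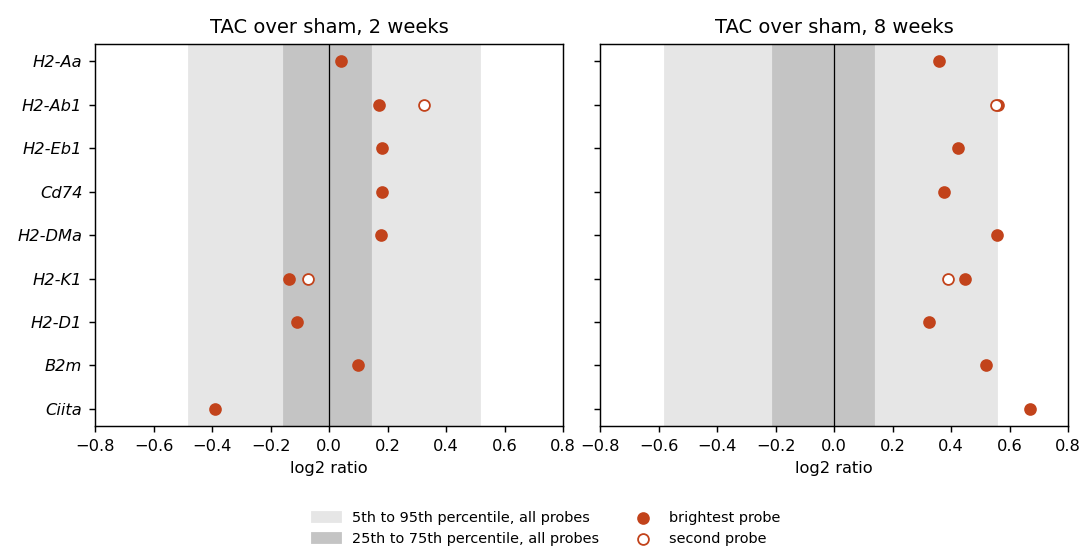
Log2 ratio of TAC over sham for the 9 genes at 2 weeks (left) and 8 weeks (right), filled points for the brightest probe of a gene and open points for the second probe of H2-Ab1 and H2-K1. Grey bands hold the 25th to 75th and the 5th to 95th percentiles of all probes well above background on both arrays; at 8 weeks every point lies to the right of the inner band, and that of Ciita, at 0.67, lies furthest to the right.

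The class I genes had another order at 2 weeks. H2-K1, a heavy chain, was measured by a probe printed on 10 spots of each array. At 2 weeks its spots ran from 22.03 to 26.4 with a median of 24.9 in sham, and from 19.6 to 24.9 with a median of 23.03 in TAC. At 8 weeks they ran from 21.7 to 25.7 with a median of 24.4 in sham, and from 29.1 to 34.3 with a median of 33.3 in TAC. The spots of the 2-week pools overlapped, with 3 of 10 TAC spots below the lowest sham spot. At 8 weeks 10 of 10 TAC spots lay above the highest sham spot.

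The mean log2 ratio of H2-K1 over these spots was -0.14 at 2 weeks and 0.45 at 8 weeks, with a standard error within the arrays of 0.04 and 0.03. This error counts spots of the same pool and says nothing of the mice. The second H2-K1 probe read 15.05 and 14.3 at 2 weeks and 14.6 and 19.1 at 8 weeks, with log2 ratios of -0.07 and 0.39. The probes thus had the same sign at each time.

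**Figure D3:**
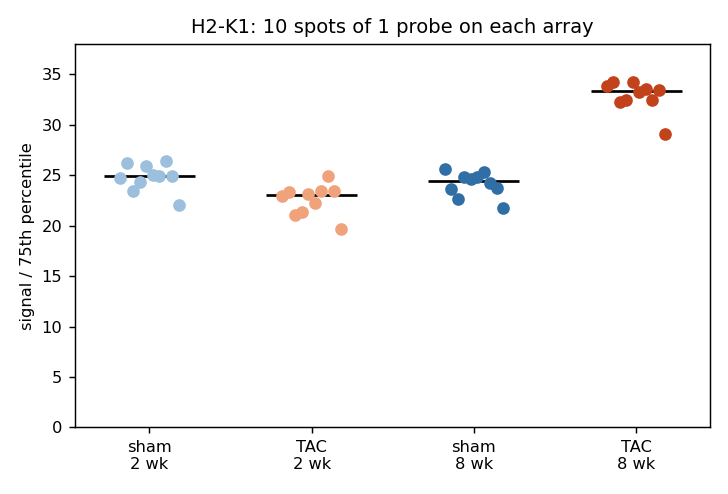
The 10 spots of the brighter H2-K1 probe on each of the 4 arrays, as multiples of the 75th percentile of the array's probes, with the median as a bar. Points are repeated spots of 1 pool and not animals; the spots of the TAC pool at 8 weeks run from 29.1 to 34.3, all above those of the other arrays, whose highest spot is at 26.4.

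H2-D1, the other class I heavy chain, read 29.1 in sham and 26.98 in TAC at 2 weeks, and 27.6 and 34.6 at 8 weeks. The 2-week difference, a log2 ratio of -0.11, was within the SD of a spot ratio, and the 8-week ratio was 0.32. H2-K1 and H2-D1 share sequence with each other and with other class I genes: of all 60-base windows of their annotated transcripts, 5.89% of H2-K1 and 8.14% of H2-D1 also occur in a transcript of another gene. Which window a probe covers was not known, so the levels of these 2 heavy chains may include RNA of related genes. Of the other 7 members, H2-Aa had 0.230% of such windows and the rest had 0.

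B2m, the light chain of class I molecules, lies outside this gene family. It read 53.8 in sham and 57.6 in TAC at 2 weeks, and 49.9 and 71.4 at 8 weeks. At 8 weeks its 2 spots were at 70.2 and 72.7 in TAC and at 49.5 and 50.2 in sham. Its log2 ratio was 0.10 at 2 weeks and 0.52 at 8 weeks. The 3 class I genes had a median log2 ratio of -0.11 at 2 weeks and 0.45 at 8 weeks.

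Ciita, the coactivator of class II transcription, gave a signal close to background. It read 0.0942 in sham and 0.0718 in TAC at 2 weeks, and 0.0778 and 0.124 at 8 weeks, where the lowest signal still called well above background was between 0.0469 and 0.0600. Its level was lowest in the TAC pool at 2 weeks and highest in the TAC pool at 8 weeks. The log2 ratio was -0.39 at 2 weeks, or 1.31-fold lower, and 0.67 at 8 weeks. Both exceeded the SD of 0.32 for a dim spot ratio. After a background correction that compresses dim signals, normexp with an offset of 50 followed by quantile normalization, these ratios were -0.04 and 0.20.

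At 8 weeks the position of the members among all measured probes was high but not extreme. The share of probes with a lower log2 ratio ran from 88.5% for H2-D1, through 89.9% for H2-Aa, 90.5% for Cd74, 92.2% for H2-Eb1, 92.8% for H2-K1, 94.4% for B2m, 95.02% for H2-DMa and 95.1% for H2-Ab1, to 96.5% for Ciita. Of all probes, 11.5% had a ratio at or above that of H2-D1. Neighbours in this order differed by less than the spread of a spot. At 2 weeks the same shares ran from 7.53% for Ciita to 78.6% for Cd74.

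The 8-week ratio exceeded the 2-week ratio for 9 of 9 genes. The excess in log2 was 0.19 for Cd74, 0.24 for H2-Eb1, 0.32 for H2-Aa, 0.38 for H2-DMa, 0.39 for H2-Ab1, 0.42 for B2m, 0.44 for H2-D1, 0.59 for H2-K1 and 1.06 for Ciita. Over the 29262 probes well above background on every array, 48.5% had a higher ratio at 8 weeks, and 18.6% exceeded by at least the 0.19 of Cd74. With 1 pool at each time, this difference was not tested.

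The 2 sham pools give the one comparison without TAC. From 2 to 8 weeks after sham surgery, the log2 difference ran from -0.28 for Ciita to 0.19 for H2-Aa, with a median of -0.04, and 7 of 9 genes were lower. None of the 9 passed 1.5-fold or 2-fold there, while 3.05% of all probes were higher and 2.02% lower past 1.5-fold, and 1.49% and 0.853% past 2-fold. Time, age and pool cannot be told apart in it. The 8-week TAC ratio of each gene was larger than the size of its own sham difference. Between the TAC pools, all 9 genes were higher at 8 weeks, by 0.16 in log2 for Cd74 to 0.78 for Ciita, and Ciita passed 1.5-fold. Of all probes, 2.78% were higher and 4.5% lower past 1.5-fold in that comparison, and past 2-fold, where none of the 9 genes lay, 1.19% and 1.65%. The sham and the TAC comparisons over time use the same 4 arrays as the TAC ratios and are no second measurement.

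Genes that work with the members were taken from 7 lists. Of 6 further class II genes, 5 had a probe, and only H2-DMb1 and H2-Ob were well above background on all arrays. H2-DMb1, the partner chain of H2-DMa, read 1.06 and 1.38 at 2 weeks and 1.18 and 1.55 at 8 weeks, a log2 ratio of 0.39 at both times. H2-Ob, a chain of the H2-DM inhibitor H2-O, read 0.163 and 0.221, and then 0.128 and 0.254, log2 ratios of 0.45 and 0.99. On these probes both had their highest level in the TAC pool at 8 weeks. The H2-Ob probe was below 0.25, the limit for dim probes, except in that pool. A second H2-Ob probe read 0.0825 and 0.105, and then 0.0480 and 0.0816, and was highest in the TAC pool at 2 weeks. It was not well above background in sham at 8 weeks. H2-Eb2, a beta chain gene, was called higher at 2 weeks, at least 1.31-fold because its sham pool was not well above background, and at 8 weeks it read 0.100 in sham and 0.0812 in TAC.

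Of 13 further class I genes measured on all arrays, 7 were above sham at 2 weeks, with a median log2 ratio of 0.01, and 10 at 8 weeks, with a median of 0.23. The probe of H2-Q4, which had the highest mean signal in this list, read 163 and 163 at 2 weeks and 179 and 147 at 8 weeks. Its 8-week log2 ratio of -0.29 went the other way from those of H2-K1 and H2-D1. None of the 13 passed 2-fold.

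Class I peptides are cut by the proteasome, carried by the TAP transporter and loaded with the help of chaperones. Of 13 genes with these roles, 1 was above sham at 2 weeks and 7 at 8 weeks, with median log2 ratios of -0.11 and 0.01. The gene with the highest mean signal was Psmb10, a catalytic subunit of the immunoproteasome, at 53.6 and 63.7 and then 50.9 and 68.0, log2 ratios of 0.25 and 0.42. The other 2 immunoproteasome subunits, Psmb8 and Psmb9, had 8-week log2 ratios of 0.34 and 0.18. The transporter chains Tap1 and Tap2 were at 0.50, the highest of the 13, and 0.06, and the proteasome activators Psme1 and Psme2 at -0.33, the lowest, and 0.01. The chaperones Calr and Canx were below sham at 8 weeks, at -0.12 and -0.15. None passed 2-fold, and the genes beside Psmb10 were named after their values were seen.

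Of 7 measured genes for factors that bind or activate MHC promoters, 1 was above sham at 2 weeks and 2 at 8 weeks, with a median log2 ratio of -0.12 at both times. The brightest probe was that of Nfyc, a subunit of the Y box factor NF-Y, at 14.9 and 13.8 and then 15.5 and 12.0. Its 8-week ratio was -0.37. Nlrc5, the class I coactivator, gave a log2 ratio of -0.37 at 2 weeks and one of 0.60 at 8 weeks on its brighter probe. Its second probe gave -0.33 and -0.21, so the probes disagreed in sign at 8 weeks. Nlrc5 was named after its values were seen. Rfx5 was not well above background on any array.

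All 6 genes of endosomal proteolysis were above sham at 8 weeks, with a median log2 ratio of 0.30, and 2 of 6 at 2 weeks, with a median of -0.01. Ctsd, the gene of cathepsin D and the one with the highest mean signal, read 167 and 165 at 2 weeks and 168 and 214 at 8 weeks. Ctss, the gene of the protease that trims the invariant chain, read 3.95 and 6.17 at 2 weeks and 3.90 and 6.83 at 8 weeks, log2 ratios of 0.64 and 0.81. Its TAC pools were the 2 highest arrays at both times. Ctss was named after its values were seen.

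Of 8 genes of the interferon gamma axis, Ifng itself was not well above background on any array. Of the other 7, 4 were above sham at 2 weeks and 5 at 8 weeks, with median log2 ratios of 0.07 and 0.19. The receptor chain Ifngr2, the brightest, read 29.7 and 28.7 and then 32.2 and 28.8. Of 5 costimulatory genes, 2 were above sham at 2 weeks and 3 at 8 weeks, with medians of -0.10 and 0.29. Cd80, the brightest of them, read 2.15 and 2.01 and then 2.00 and 1.74, so that its TAC pools lay slightly below sham. A second Cd80 probe was not well above background on any array. Cd86, a relative of Cd80 named after its values were seen, was 1.55-fold and 1.995-fold higher.

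**Figure D4:**
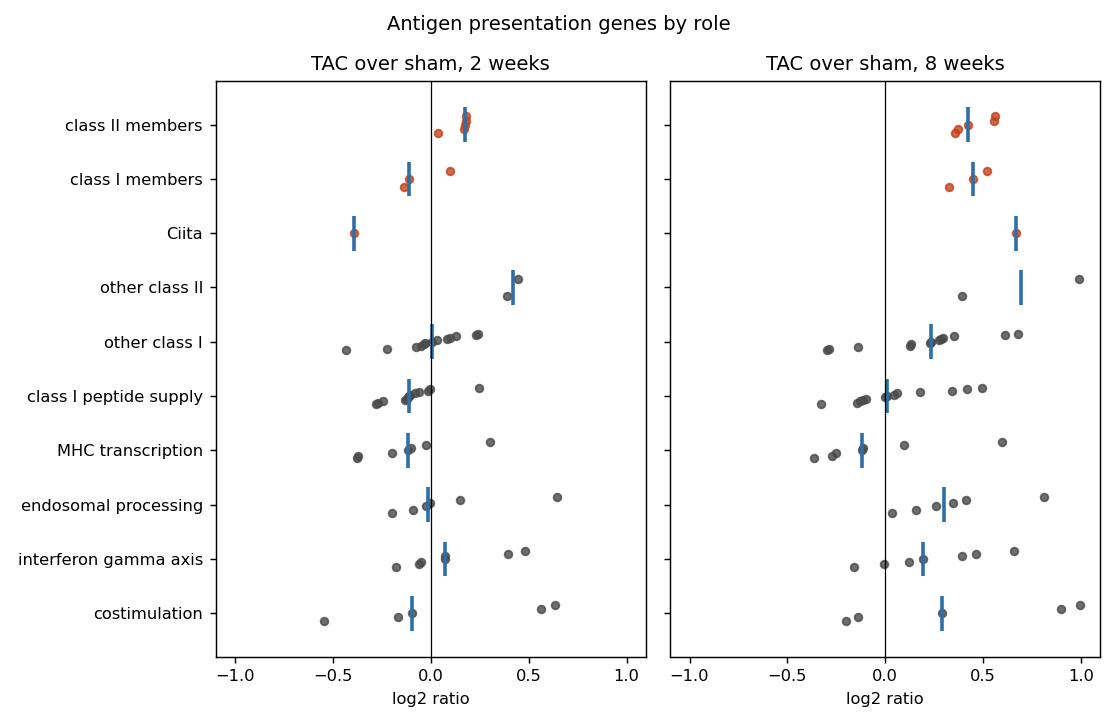
Log2 ratio of TAC over sham at 2 weeks (left) and 8 weeks (right) for the members (red) and for other genes of antigen presentation by role (grey), for genes well above background on all 4 arrays, with the median of each list as a blue bar. The 8-week medians of the class II and class I members are 0.42 and 0.45, while those of class I peptide supply and MHC transcription are 0.01 and -0.12.

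Markers of the cell types that carry these molecules were read on the same arrays. Of 12 macrophage markers, all were well above background on every array and 11 were above sham at each time, with a median log2 ratio of 0.44 at 2 weeks and 0.41 at 8 weeks. Their summed level was 203 in sham and 215 in TAC at 2 weeks, and 202 and 215 at 8 weeks, but 144 to 151 of each sum came from the probe of Itgam. That probe had log2 ratios of -0.02 and -0.04. The other Itgam probes read at most 0.542, with log2 ratios of -0.38 and -0.49 on the second and 0.16 and -0.16 on the third, so the probes disagreed. Among the complement genes of resident macrophages, C1qa had log2 ratios of 0.26 and 0.56, C1qb 0.45 and 0.54, and C1qc 0.41 and 0.42. Csf1r, the receptor of their growth factor, gave 0.30 and 0.31 on its brightest probe, 0.04 and -0.01 on the next and 0.37 and 0.25 on the third, so its probes disagreed. The macrophage median was thus alike at both times, while that of the class II members was 0.18 and then 0.42, and that of the class I members -0.11 and then 0.45. The part of macrophages in the members' levels was not tested.

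Of 8 dendritic cell markers, 5 were measured on all arrays, with median log2 ratios of 0.22 and 0.30. All 5 of these were above sham at 2 weeks and 4 at 8 weeks. Flt3 was at 0.02 at 8 weeks on its brighter probe. Zbtb46 was at -0.34 at 8 weeks on its brighter probe and at 0.45 on its second, so its probes disagreed. The sum over all 8 was 1.16 and 1.41 at 2 weeks and 1.24 and 1.42 at 8 weeks. Sums here and below include markers at background. Cd209a and Xcr1 were not well above background on any array. Clec9a was well above background on both TAC arrays and on neither sham array. The 8-week difference was at least 1.18-fold, whereas at 2 weeks its TAC level of 0.0581 lay under the lowest signal called well above background in sham, so no fold can be given. Of 5 B cell markers, 3 were measured on all arrays, with medians of 0.54 and 0.30, and Pax5 was at background throughout. Ms4a1, the gene of CD20, was called higher at 2 weeks, at least 2.20-fold, and read 0.0812 in sham and 0.0836 in TAC at 8 weeks. Cd79a was below sham at both times, with log2 ratios of -0.27 and -0.30. The summed level of the B cell markers was 0.865 and 1.20 at 2 weeks and 0.718 and 0.870 at 8 weeks. The sum was thus highest in the TAC pool at 2 weeks, not the one at 8 weeks. Cd79b was the largest part of each sum, at 0.508 and 0.738 and then 0.359 and 0.529.

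T and NK cell markers were mostly at background: Cd3g, Cd8a, Ncr1 and Klrb1c on all arrays, and 2 of 7 were measured throughout, with medians of 0.05 and -0.16. The remaining one, Cd3d, a chain of the T cell receptor complex, was well above background on both TAC arrays and on neither sham array, by a factor of at least 1.31 at 2 weeks, where it was called, and 1.61 at 8 weeks. Their summed level was 14.9 and 15.5 at 2 weeks and 15.3 and 13.7 at 8 weeks, nearly all of it from the probes of Cd3e and Cd4. The Cd4 probe used gave log2 ratios of 0.04 and -0.17. A second, dimmer Cd4 probe, well above background on all 4 arrays, gave 0.34 and 0.08, so the Cd4 probes disagreed in sign at 8 weeks. Ptprc, the gene of the pan-leukocyte antigen CD45, had log2 ratios of 0.43 and 0.31. Endothelial markers had a median of 0.21 at 2 weeks and -0.01 at 8 weeks, with summed levels of 58.7 and 60.2 and then 51.6 and 49.9. Most of each sum came from the brighter Kdr probe, with log2 ratios of -0.04 and -0.08. A second Kdr probe gave 0.20 and -0.21, so the Kdr probes disagreed in sign at 2 weeks. Fibroblast markers had medians of 0.31 and 0.40. At 8 weeks Col1a1 among them was 2.30-fold higher, while Tcf21 was below sham at a log2 ratio of -0.55. Their sums were 165 and 204 and then 189 and 249, mostly from Dcn, at 143 and 162 and then 167 and 203. Cardiomyocyte markers had a median of -0.17 at both times. Their summed level of 6514 in sham and 6055 in TAC at 2 weeks, and of 6220 and 5672 at 8 weeks, came from 6 genes that were all well above background on every array, as heart tissue requires.

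**Figure D5:**
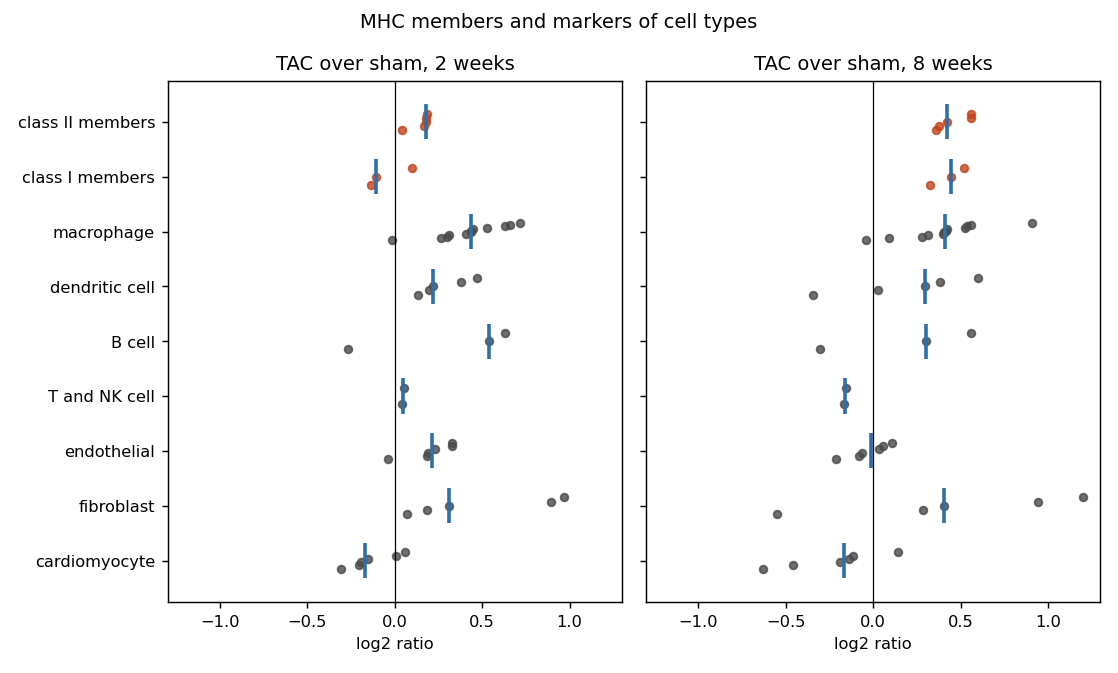
Log2 ratio of TAC over sham at 2 weeks (left) and 8 weeks (right) for the class II and class I members (red) and for markers of 7 cell types (grey), for genes well above background on all 4 arrays, with the median of each list as a blue bar. The macrophage median is 0.44 and then 0.41, and the class I median is -0.11 and then 0.45.

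Across the 4 arrays, the 5 class II genes were close to their own mean pattern, in which sham at 2 weeks, TAC at 2 weeks, sham at 8 weeks and TAC at 8 weeks stood at -0.15, -0.00, -0.15 and 0.31 in log2 around the mean of the 4. The root mean square difference from this pattern was 0.02 for H2-Eb1, 0.04 for H2-DMa, 0.05 for H2-Ab1, 0.06 for Cd74 and 0.11 for H2-Aa. B2m, which did not enter the pattern, was at 0.04, H2-D1 at 0.10, H2-K1 at 0.11 and Ciita at 0.21. Over 4 arrays such closeness is common: 1578 probes of other genes lay within 0.1. The nearest probes outside the set were those of Bicc1, Cltb, Aen, a transcript without a gene name here, and Mark1, at 0.01 to 0.02.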

How the data were processed

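Pooled heart RNA of each group was hybridized to a single-color Agilent mouse array, all 4 arrays on 1 slide and scanned together, so no batch could be compared. The authors deposited scanner output in which each spot has a processed intensity, with the background already removed and no scaling between arrays. Its headers name Feature Extraction 10.7.3.1, and the submitters' processing notes name version 9.1. In the deposited value table these intensity values reappear, multiplied by 1 constant for each array (3.52 to 4.35, largest departure 0.0139%), with column medians of 97.2 to 106. Its scale is thus linear and its values are not centred.

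Here outlier spots were dropped, log2 intensities were averaged over the spots of a probe, and each array was centred on the 75th percentile of its probes, controls left out. Probe names were matched to genes through RefSeq and GENCODE M21 transcripts: 29501 of 55681 probes matched. For a gene with several probes, the one with the highest mean signal was used. A call needed a difference past 2-fold and a signal well above background on the brighter array. A fold against an array not well above background is a lower bound, computed against the larger of that probe's signal and the dimmest signal that array still called.

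The members, gene lists and markers were chosen with earlier results of these data known. From the 7 pathway lists, genes past 2-fold and the one with the highest mean signal were named, with the exceptions given in the text. Markers were named where they passed 2-fold or were at background. C1qa, C1qb, C1qc, Csf1r, Itgam, Cd3e, Cd4, Flt3, Zbtb46, Cd79a, Cd79b, Kdr, Dcn and Tcf21 were named after their values were seen. The 5 probes nearest in pattern to the class II genes were named. The alternatives were the median as the scaling value, quantile normalization, no normalization, normexp with an offset of 50 (limma 3.58.1, R 4.3.3), the series table, outlier spots kept, the mean over a gene's probes, the percentile over spots, and a threshold of 1.5-fold and 3-fold. Python 3.11.15, pandas 2.3.3 and numpy 2.4.6 were used. The number of arrays limits the precision.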

Additional observations from a re-analysis of the deposited data

Results flagged for a closer look

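For H2-K1 and Ciita the log2 ratio of TAC over sham had opposite signs at the 2 times, each larger than the SD of a spot ratio at that brightness. H2-K1 was at -0.14 at 2 weeks and 0.45 at 8 weeks on its brighter probe. Its second probe was at -0.07 and 0.39, with the 2-week value within that SD. Ciita was at -0.39 at 2 weeks and 0.67 at 8 weeks. H2-D1 also had opposite signs, at -0.11 and 0.32, but its 2-week value was within that SD. With 1 pool per group the difference between the times was not tested.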

How the results depend on the processing

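Under 8 alternatives for each gene, all 72 values at 8 weeks stayed above 0, from 0.20 to 0.84 in log2. Scaling to the median, no normalization, the series table, kept outlier spots and the percentile over spots each shift all genes nearly alike. The mean over a gene's probes changes only H2-Ab1 and H2-K1. The 72 values are thus not independent checks. At 2 weeks 71 of 72 values had the sign reported above, and the exception was H2-Aa, at -0.00 with arrays scaled to their median. Ciita moved by more than 0.17, the SD of a spot ratio over all repeated probes, under normexp with quantile normalization, to -0.04 at 2 weeks and 0.20 at 8 weeks, and no other gene did under any alternative. The number of genes called at 8 weeks was 0 at 2-fold and 1 at 1.5-fold. Without normalization between arrays, the median of all probes at 8 weeks was 0.13 in place of -0.04, so the members' ratios there are to be read relative to it. No paired analysis was possible because, within a time, each group had 1 array and no replicate number to pair, and for that reason no array could be left out. A TAC difference pooled over both times was not tested. Dim signal limits the reading of Ciita, and shared sequence that of H2-K1 and H2-D1.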
